A study of Bos taurus with 8 samples.

Results

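The annexin family was followed on 8 single-colour bovine oligonucleotide arrays of rumen papillae. The family was defined as 10 genes, ANXA1 to ANXA9 and ANXA11, and a probe was taken as theirs when its RefSeq accession belonged to the gene in a bovine gene table (assembly ARS-UCD2.0). Of the 10 genes, 8 had a probe, against 7788 genes with a symbol on the whole array, and each of the 8 had 1 probe with 2 spots. ANXA1, the glucocorticoid-induced annexin that acts on formyl peptide receptors, and ANXA11, which binds the calcium sensor PDCD6, had no matched probe and were not analysed here. ANXA2 to ANXA7 and ANXA9 carry their symbols in the table, and the probe of ANXA8 (NM_174241) was matched through a synonym, because the current symbol of that gene is ANXA8L1. Genome positions are not given, because the annotation of the array and the gene table are of different builds.

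The papillae, the finger-like folds of the rumen wall, came from 4 ruminally cannulated Holstein cows at 84 ± 25 d in milk when the trial began. Each cow was fed LC, in which concentrate made up 40% of dry matter, and HC, in which it made up 70%, for 21 d each in a crossover, and papillae were cut from the ventral sac on d 21, 4 h after the morning feeding. Cows 1 and 2 received LC in period 1 and HC in period 2, and cows 3 and 4 the reverse, so each diet has 4 arrays. Breed, cannula, a common low-concentrate diet before the trial and the sampling scheme were shared by both diets, and the study asked whether HC feeding changes gene expression in the rumen epithelium.

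Annexins are proteins that bind acidic phospholipids of cell membranes when calcium rises. They share a core of annexin repeats and differ in their N-terminal tails, through which several of them bind S100 proteins. In epithelia they take part in membrane trafficking, in the link between membrane and actin and in the repair of torn membranes, and some act outside the cell in fibrinolysis, coagulation and inflammation.

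Values are log2 signals after quantile normalization, and a difference of 1 is a change by a factor of 2. A probe was called when its signal differed by at least 1.5-fold with an unadjusted P under 0.05 in limma, and adjustment for all 21475 probes is given beside it. The study used the same cut-offs with the P of a general linear model without moderation. Moderation changes the P but not the fold, so a gene short of 1.5-fold is not called with or without it. Median intensities were 92.1 to 132 on the LC arrays and 100.8 to 123 on the HC arrays, no spot was saturated, and the scanner software's test put 16030 probes well above background on every array. For diet, 198 probes (0.922%) were called and 784 (3.65%) had an unadjusted P under 0.05 in limma, while the lowest adjusted P was 0.412. The 4 arrays of a period lay on 1 slide, and the effects of slide and period cannot be told apart. In the table of normalized values that was also deposited, the columns named for cows 1 and 2 held each other's scanner values on both diets, so which of these 2 animals bears which number is uncertain, while their diets, their period and the pairing of their arrays are not affected. The papilla is bulk tissue, in which fewer cells of a type and less RNA per cell cannot be told apart.

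ANXA2 to ANXA8 were well above background on each of the 8 arrays, and for none of these 7 annexins was a difference between the diets past either threshold. Their log2 fold changes (HC minus LC) ran from -0.16 to 0.11, with 6 below 0 and 1, ANXA6, above 0. The median was -0.14, beside a median of 0.00 over the 16030 probes. The median size of the difference was 0.14, beside 0.0841 over all of these probes. Of the 8 annexins with a probe, 0 were called for diet, and 1, ANXA9, had an unadjusted P under 0.05 in limma (0 after adjustment; 0 and 0 by the same model without moderation), beside the 0.922% and 3.65% of all probes given above.

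**Figure D1:**
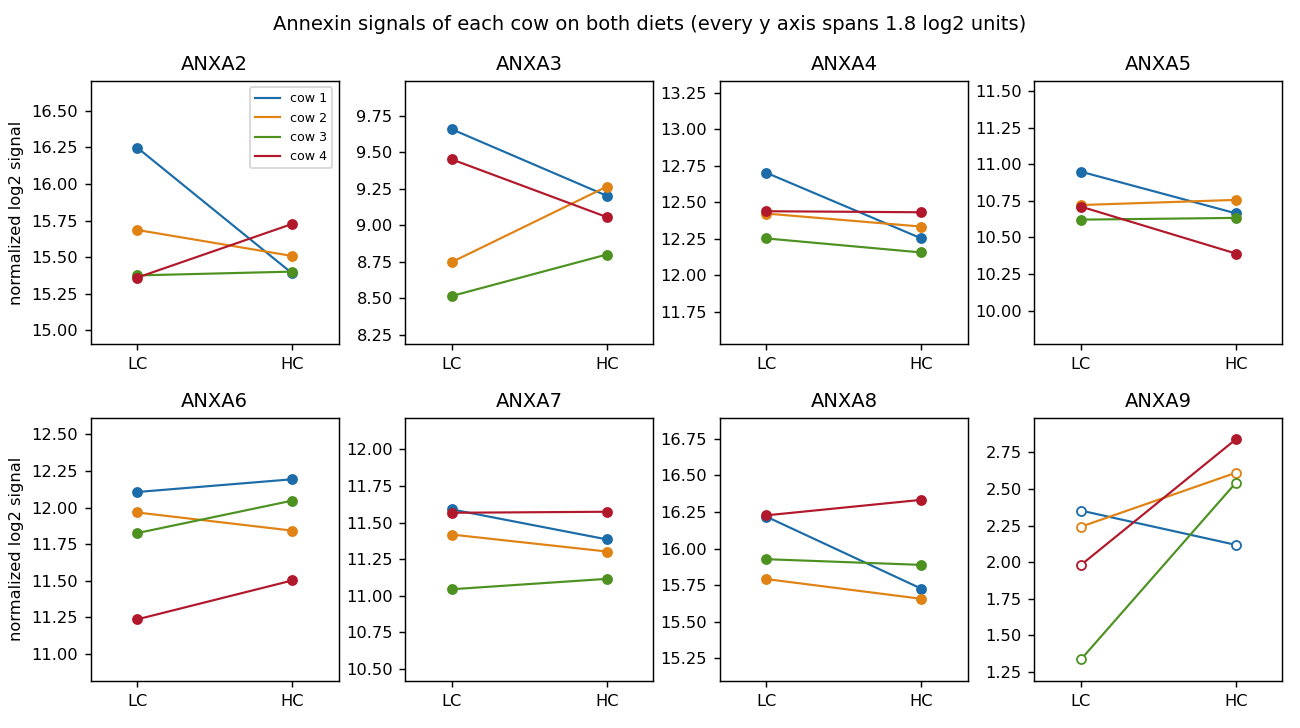
Normalized log2 signal (y axis, 1.8 units in every panel) of each annexin on LC and on HC (x axis), with 1 line per cow, where a filled point was well above background and an open point was not. ANXA4 is lower on HC in 4 of 4 cows, and the ANXA2 line of cow 1 falls from 16.25 to 15.39 while that of cow 4 rises from 15.36 to 15.73.

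ANXA2 (NM_174716) forms a heterotetramer with S100A10 under the plasma membrane and docks plasminogen activators at the cell surface. On LC, its log2 signal was 16.25, 15.69, 15.38 and 15.36 in cows 1 to 4, and on HC it was 15.39, 15.51, 15.40 and 15.73. The 4 HC values all lay within the range of the LC values, and the LC array of cow 1 stood above the other 7. The mean was 15.67 ± 0.42 on LC and 15.51 ± 0.16 on HC (SD, n = 4 each). The log2 fold change was -0.16 (SE 0.15, 95% interval -0.53 to 0.21), a fold of 0.894 (P = 0.331 in limma, unadjusted, exact permutation P = 0.714). Within cows, HC minus LC was -0.86, -0.18, 0.03 and 0.37 for cows 1 to 4. It was below 0 in the cows fed HC in period 2 and above 0 in those fed HC in period 1, so diet and period are mixed in these signs. Leaving out each array in turn gave log2 fold changes of ANXA2 from -0.30 (without cow 2 on LC) to -0.02 (without cow 1 on LC).

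ANXA8, which links late endosomes to actin and is known from stratified epithelia, had log2 signals of 16.22, 15.79, 15.93 and 16.23 on LC in cows 1 to 4. On HC these were 15.73, 15.66, 15.89 and 16.33. The groups overlapped, and the highest and the lowest array were both on HC. The log2 fold change was -0.14 (SE 0.16, 95% interval -0.52 to 0.24), with P = 0.408 in limma (unadjusted) and an exact permutation P of 0.486. ANXA8 was lower on HC in 3 of 4 cows, with the widest step, -0.49, in cow 1. Without cow 1 on LC or cow 3 on HC the log2 fold change was -0.03, and without cow 4 on HC it was -0.25.

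ANXA4 and ANXA5 are small annexins of close structure. ANXA4 (NM_001001440) lies at the apical side of many epithelia, and its log2 signal was 12.70, 12.42, 12.25 and 12.44 on LC and 12.25, 12.33, 12.16 and 12.43 on HC in cows 1 to 4. It was lower on HC in 4 of 4 cows, although the differences of -0.45, -0.09, -0.10 and -0.01 were uneven and the 2 groups overlapped. The log2 fold change was -0.16 (SE 0.12, 95% interval -0.44 to 0.12, P = 0.219 in limma, unadjusted, exact permutation P = 0.229), and -0.09 without cow 1 on LC or without cow 3 on HC. ANXA5 (NM_001040477), which covers exposed phosphatidylserine and slows coagulation, had log2 signals of 10.95, 10.72, 10.62 and 10.71 on LC and 10.66, 10.76, 10.63 and 10.39 on HC. It was lower on HC in cows 1 and 4 and higher by 0.03 and 0.01 in cows 2 and 3. Its log2 fold change was -0.14 (SE 0.11, 95% interval -0.39 to 0.12, P = 0.231 in limma, unadjusted, exact permutation P = 0.314).

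ANXA6 (NM_001103224), the annexin with the longest core, is known from muscle and connective tissue, where it takes part in membrane repair and cholesterol traffic. Its log2 signal was 12.11, 11.97, 11.82 and 11.24 on LC in cows 1 to 4 and 12.19, 11.84, 12.05 and 11.50 on HC. The 2 arrays of cow 4 were the lowest on their diets, and the groups overlapped. The log2 fold change was 0.11 (SE 0.19, 95% interval -0.36 to 0.58, P = 0.581 in limma, unadjusted, exact permutation P = 0.629), with higher values on HC in 3 of 4 cows. The sign turned, to -0.03, without cow 4 on LC and to -0.02 without cow 3 on HC.

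ANXA7 (NM_001075991), also called synexin, aggregates secretory granules. Its log2 signal was 11.59, 11.42, 11.04 and 11.57 on LC and 11.39, 11.30, 11.12 and 11.57 on HC in cows 1 to 4. Each cow was close to its own value on the other diet, with cow 3 the lowest on both. The log2 fold change was -0.06 (SE 0.16, 95% interval -0.46 to 0.34, P = 0.723 in limma, unadjusted, exact permutation P = 0.714), and its sign turned without cow 4 on LC (0.07) or cow 3 on HC (0.05).

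ANXA3 (NM_001035325), an annexin known from neutrophil granules and endothelial migration, had the widest SD over the arrays of the 7 annexins well above background. On LC its log2 signal was 9.66, 8.75, 8.52 and 9.45 in cows 1 to 4, and on HC it was 9.20, 9.26, 8.80 and 9.06. The 4 HC values lay inside the LC range, whose ends were 2.20-fold apart. HC minus LC was -0.46 and -0.39 in cows 1 and 4, and 0.52 and 0.28 in cows 2 and 3. The log2 fold change was -0.01 (SE 0.28, P = 0.965 in limma, unadjusted, exact permutation P = 1.00), and its 95% interval, -0.68 to 0.66, passed a 1.5-fold change on both sides. ANXA3 lay above 0 without cow 1 on LC (0.21), cow 4 on LC (0.22), cow 3 on HC (0.05) or cow 1 on HC (0.0032).

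ANXA9 (NM_001035373), an annexin whose core has lost its usual calcium sites, was at the edge of detection. Its probe was well above background on 0 of 4 LC arrays and on 1 of 4 HC arrays, that of cow 4. The measured log2 signals were 2.35, 2.24, 1.33 and 1.98 on LC and 2.12, 2.61, 2.54 and 2.84 on HC in cows 1 to 4, while the lowest signal well above background on an array was 2.02 to 2.77. HC was higher in 3 of 4 cows and the groups overlapped. The P of limma was 0.0265 unadjusted and 1.00 adjusted, with an exact permutation P of 0.0857. Measured means were 1.98 on LC and 2.53 on HC. No fold is given, because 7 of the 8 values were not well above background, and after normexp background correction the log2 difference was 0.0040. The 2 spots of this probe differed by up to 1.98 on one array, against at most 0.29 for the other 7 annexins.

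**Figure D2:**
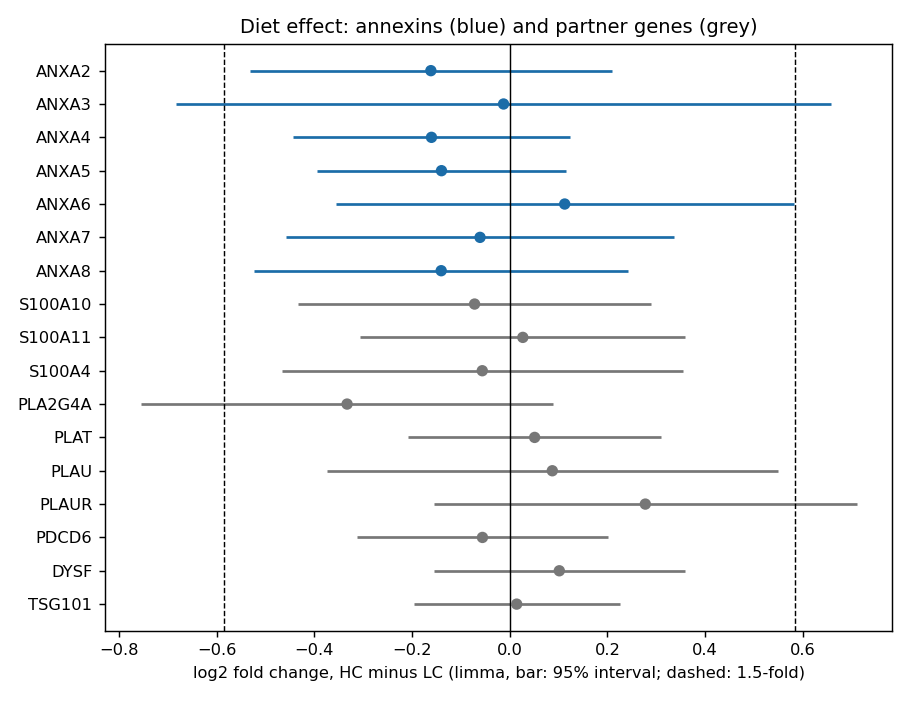
Log2 fold change for diet (x axis, HC minus LC, points) with its 95% interval from limma (bars) for the 7 annexins well above background on all arrays (blue) and 10 genes of partner proteins (grey), where dashed lines mark 1.5-fold. With the moderation of limma, the intervals of 6 of the 7 annexins stay inside 1.5-fold, that of ANXA3 (-0.68 to 0.66) does not, and all 17 cross 0.

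The precision allowed changes of a given size to be bounded. For ANXA2, ANXA4, ANXA5, ANXA6, ANXA7 and ANXA8, 6 of the 7, the 95% interval of the diet difference lay inside 1.5-fold in either direction, although for ANXA6 its upper end came to 1.50-fold. The same held for 79.0% of the 16030 probes. These intervals rest on the moderation of limma. Without it, the SEs of ANXA2, ANXA6 and ANXA8 were 0.165, 0.222 and 0.172 with 4 degrees of freedom (equal for diet and period in this balanced design). The intervals of these genes then passed 1.5-fold, so for them the bound depends on the moderation. The median SE of the difference was 0.158 for the 7 annexins and 0.127 for those probes. Smaller changes, such as the 0.14 that is the median size among these annexins, were not detectable with 4 arrays per diet.

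The LC array of cow 1 was the highest of the 8 for 5 of the 7 annexins (ANXA2, ANXA3, ANXA4, ANXA5 and ANXA7), whereas 13.7% of the 16030 probes were highest there. Within cow 1, 6 of 7 annexins were lower on HC, with a median of -0.45. In cow 2, 5 of 7 were lower, with a median of -0.12. In cows 3 and 4, 2 and 3 of the 7 were lower, with medians of 0.03 and 0.01. Over all of those probes the share lower on HC was 47.2 to 52.6% in each cow. Cows 1 and 2 were fed HC in period 2 and cows 3 and 4 in period 1, so diet and period are mixed in these counts. Without the LC array of cow 1, 5 of the 7 log2 fold changes stayed below 0, and that of ANXA3 was above 0. Other single arrays moved several of them about as much, since ANXA5 was -0.08 without it and also -0.08 without cow 4 on HC. Without cow 3 on HC, 2 annexins, ANXA3 and ANXA7, were above 0 while ANXA6 was below. ANXA2 was -0.02 without cow 1 on LC, and -0.24 to -0.08 without any array but the LC arrays of cows 1 and 2. Each diet had 2 arrays per period, and leaving out either shifts the estimate equally far in opposite directions.

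**Figure D3:**
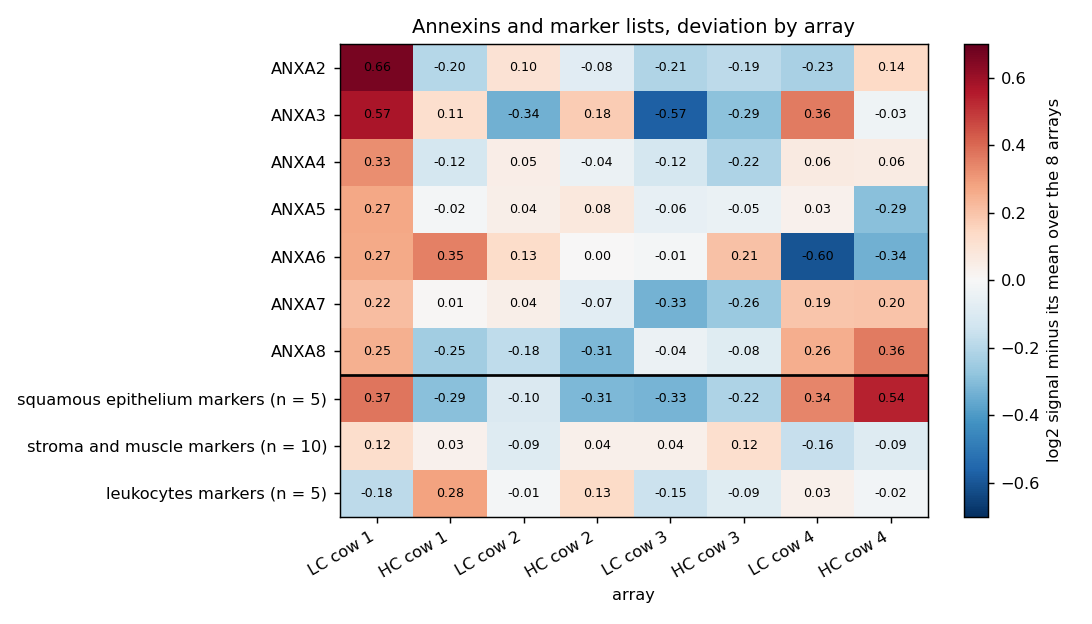
Deviation of the log2 signal from its mean over the 8 arrays (colour and number) for 7 annexins and for the mean of 3 lists of cell type markers (rows) on each array (columns, with both diets of a cow side by side). ANXA2 is 0.66 above its mean on the LC array of cow 1, and ANXA6 is 0.60 and 0.34 below its mean in cow 4. ANXA8 and the mean of the squamous markers, most of whose spread comes from DSG1, are high on the same 3 arrays.

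The markers of the tissue were read on the same arrays. Of 13 squamous epithelium markers, 6 had a probe and 5 passed the background test on every array (KRT14, KRT6A, KRT15, DSP and DSG1), while TP63 was not. Their mean log2 signal was 15.64 to 16.34 on LC and 15.65 to 16.50 on HC. All 10 stroma and muscle markers were measured, at 11.35 to 11.63 on LC and 11.42 to 11.63 on HC. RNA of these markers was thus present beside that of the epithelium markers, and which cells held it was not tested. Of 11 leukocyte markers, 5 passed it on every array (CD14, ITGB2, CD79A, CD3E and CD68) and ITGAM was not, and their mean was 8.33 to 8.55 on LC and 8.43 to 8.80 on HC. Endothelial markers (KDR and TEK, 2 of 5) differed by 0.04 in the mean (HC minus LC), and the haemoglobin genes HBA and HBB by -0.14. The HC minus LC differences of the squamous, stroma and leukocyte lists were -0.14, 0.05 and 0.16.

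ANXA8 was high where the squamous markers were high. The 3 arrays with the highest squamous mean (16.34 for LC cow 1, 16.31 for LC cow 4 and 16.50 for HC cow 4) were also the 3 with the highest ANXA8. Most of the spread of that mean came from DSG1, the desmosomal cadherin of the upper layers of stratified epithelium. Without DSG1, the mean of the other 4 markers ranged only from 17.05 (LC cow 3) to 17.40 (HC cow 4), with LC cow 2 (17.32) as high as LC cow 4 (17.32). ANXA6 was lowest on the 2 arrays of cow 4, whose stroma and muscle means were 11.35 on LC and 11.42 on HC, each the lowest on its diet, though LC cow 2, with an ANXA6 of 11.97, had a stroma mean as low as HC cow 4. The part of tissue composition in the annexin values was not tested.

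**Figure D4:**
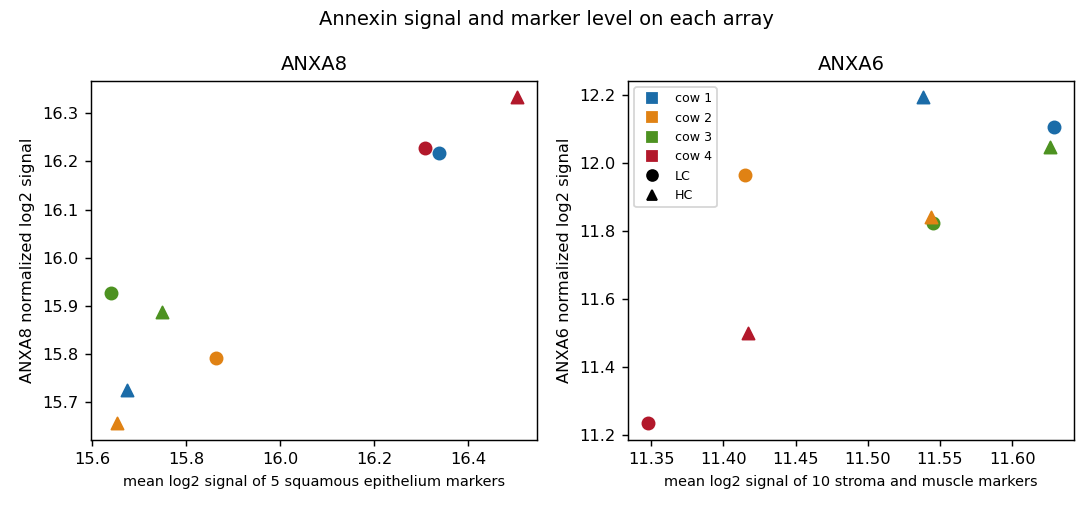
Annexin log2 signal (y axes) against the mean log2 signal of cell type markers (x axes) on each of the 8 arrays, for ANXA8 with 5 squamous epithelium markers and ANXA6 with 10 stroma and muscle markers, where colours are cows, circles LC and triangles HC. The 3 arrays with a squamous mean above 16 have the highest ANXA8 (16.22 to 16.33), and most of the spread of that mean comes from DSG1. The cow 4 arrays have the lowest ANXA6 (11.24 and 11.50).

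For each of the 7 annexins, the range of the 4 cow means was wider than the difference between the 2 diets, though a range over 4 means is wide by construction. The comparison of the 4 cows, added after the data had been seen, used the F test of limma with diet and period in the fit, and a probe was called when its cow means spanned at least 1.5-fold with an unadjusted P under 0.05. Of the 8 annexins, 1 was called, beside 13.6% (2919) of all probes. It was ANXA6, with cow means of 12.15, 11.90, 11.94 and 11.37 in cows 1 to 4, a range of 0.78 (adjusted P = 0.204 in limma). ANXA6 did not pass once the array of cow 4 on LC, of cow 4 on HC, or of cow 1 on HC was left out. ANXA7 also had an unadjusted P under 0.05, as did 16.3% (3504) of all probes (adjusted P = 0.291 in limma), with cow means of 11.49, 11.36, 11.08 and 11.57 and a range of 0.49, short of 1.5-fold. The cow means of ANXA8 ran from 15.72 in cow 2 to 16.28 in cow 4 (adjusted P = 0.338 in limma), and those of ANXA3 spanned 0.77 (adjusted P = 0.488 in limma). With 2 arrays per cow, the order of neighbouring cows could not be separated from the spread within a cow.

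**Figure D5:**
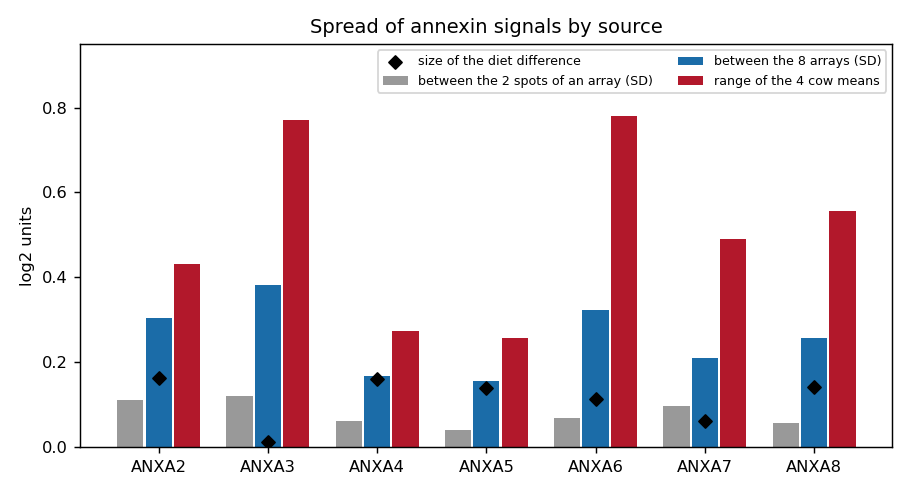
Spread of the log2 signal (y axis) of 7 annexins as the SD between the 2 spots of an array (grey bars), the SD between the 8 arrays (blue bars) and the range of the 4 cow means (red bars), with the size of the diet difference as a diamond. For ANXA6, the spots differ by an SD of 0.0685, the arrays by 0.324 and the cow means by a range of 0.78, beside a diet difference of 0.11.

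Technical repeat spots were close by comparison. The SD between the 2 spots of an array was 0.0396 (ANXA5) to 0.121 (ANXA3), and the SD over the 8 arrays was 0.156 (ANXA5) to 0.383 (ANXA3). The median SD over the arrays was 0.256 for the 7 annexins, 0.206 for 10 partner genes and 0.203 for the 16030 probes.

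Period 2 against period 1 gave 828 called probes (3.86%), and 2636 (12.3%) had an unadjusted P under 0.05 in limma. Of the 8 annexins, 0 were called (0 also without moderation) and 1, ANXA9, had such a P (0.0429, exact permutation P = 0.143), with 0 after adjustment. ANXA2 had a log2 difference of -0.36 (period 2 minus period 1) that missed the threshold (SE 0.15, P = 0.0563 in limma, unadjusted, exact permutation P = 0.0571, adjusted P = 0.429 in limma). Its unadjusted P was under 0.05 in several other settings, with differences of -0.44 after scaling to the 75th percentile (adjusted P = 0.297 in limma) and -0.39 after normexp background correction (adjusted P = 0.407 in limma), and the difference was -0.22 without the LC array of cow 1. For ANXA3 to ANXA8, period differences were -0.17 to 0.04. Cows 1 and 2 were also set against cows 3 and 4, which in this crossover is the diet by period interaction and lies between animals. The limma fit had no cow term and counted both arrays of a cow as separate. Its P values for this contrast, over all probes as well, thus do not measure the spread between cows. Here 629 probes (2.93%) were called, 0 of them an annexin (0 also without moderation), and 0 of the annexins had an unadjusted P under 0.05 in limma, beside 10.2% of all probes. The lowest was that of ANXA6 (0.37, SE 0.19, P = 0.0990 in limma, unadjusted, exact permutation P over the 4 cow means 0.667), whose diet difference was -0.26 in period 1 and 0.49 in period 2.

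Partner genes gave no call for diet either. A list of 21 genes held S100 partners, the plasminogen system, formyl peptide receptors, phospholipase, membrane repair genes and ANXA10 and ANXA13. A probe was matched for 12 of them, and for 10 it was well above background throughout. For diet, 0 of the 12 were called (0 also without moderation) and 0 had an unadjusted P under 0.05 in limma, beside 0.922% and 3.65% of all probes. The median log2 fold change of the 10 was 0.02 (range -0.33 to 0.28), with 6 above 0 and 4 below. The 95% interval of the moderated fit lay inside 1.5-fold for 8 of them.

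S100A10 (NM_174650), the light chain that binds the tail of ANXA2, had log2 signals of 12.83, 12.97, 12.98 and 13.25 on LC and 12.70, 13.18, 12.79 and 13.07 on HC in cows 1 to 4. It was lower on HC in 3 of 4 cows and the groups overlapped, with a log2 fold change of -0.07 (SE 0.15, 95% interval -0.43 to 0.29, P = 0.646 in limma, unadjusted, exact permutation P = 0.629). The LC array of cow 1, the highest for ANXA2, was the lowest of the LC arrays for S100A10. S100A11 (NM_001098856), a partner of ANXA1 and ANXA6, lay between 13.31 and 13.85 on the 8 arrays, with a log2 fold change of 0.03 (SE 0.14, 95% interval -0.31 to 0.36, P = 0.851 in limma, unadjusted, exact permutation P = 0.857). S100A4, another S100 protein that binds ANXA2, had -0.06 (P = 0.751 in limma, unadjusted, exact permutation P = 0.743). PDCD6 (NM_001105497), the calcium sensor that binds ANXA7 and ANXA11, had -0.06 (SE 0.11, P = 0.617 in limma, unadjusted, exact permutation P = 0.600). S100A6, AHNAK, PDCD6IP, FPR1, FPR2, SRI, RASA1, PRKCA and ANXA13 had no matched probe.

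Among the genes of fibrinolysis, the plasminogen activators PLAT and PLAU had log2 fold changes for diet of 0.05 and 0.09, and the urokinase receptor PLAUR had 0.28 (SE 0.18, P = 0.169 in limma, unadjusted, exact permutation P = 0.200). PLG, plasminogen itself, was well above background on 0 arrays. PLAT was the one partner of 12 with an unadjusted P under 0.05 between cows 1 and 2 and cows 3 and 4, beside 10.2% of all probes (-0.27, SE 0.11, P = 0.0446 in limma, adjusted P = 0.482 in limma), where an exact permutation test over the 4 cow means gave 0.333, the smallest P it allows. The limma fit counted both arrays of a cow as separate in this contrast. Taking the brightest probe of each gene, 1 of the 12, PLAU, had an unadjusted P under 0.05 between the 4 cows (adjusted P = 0.299 in limma). Of all probes, 16.3% had such a P. PLA2G4A, the cytosolic phospholipase that releases arachidonic acid and that annexins inhibit in vitro, had 2 probes. Their log2 fold changes were -0.33 (SE 0.17, P = 0.103 in limma, unadjusted) and -0.50 (SE 0.27, P = 0.111), with an exact permutation P of 0.171 for each, and both were lower on HC in 3 of 4 cows. The dimmer of these probes had cow means that spanned 0.76 and passed both thresholds between the 4 cows (adjusted P = 0.227 in limma), which the brighter did not. Of all probes, 13.6% passed both. Of the membrane repair genes, DYSF had 0.10 and TSG101 0.01. ANXA10 was well above background on 0 arrays.

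For each of the 7 annexins, the 3 genes most alike in pattern were taken from 6468 other genes well above background on all arrays, by Pearson r over the 8 arrays. These arrays are 2 each from 4 cows and share slides, so r is given as a description. The highest of so many r over 8 arrays is high by selection. Where r is also given without 2 arrays, it reuses 6 of the same arrays and is not a separate check. ANXA8 was most like DSG1, with r = 0.985 and 0.967 without the 2 arrays farthest from the median. DSG1 had log2 signals of 12.21, 10.03, 10.01 and 12.26 on LC and 9.64, 9.13, 10.27 and 12.92 on HC in cows 1 to 4. It was thus high on the same 3 arrays as ANXA8 and spanned a far wider range. The next for ANXA8 were ITGA7, an integrin chain that binds laminin (0.953), and HRH1, a histamine receptor (0.938).

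ANXA3 was most like CDC42, a small GTPase of actin assembly, with r = 0.985, and 0.977 without the 2 farthest arrays, although CDC42 spanned only 12.58 to 12.83. SEPTIN2, a cytoskeletal GTPase (0.975), and ELP4, an Elongator subunit (0.960), followed. ANXA7 was most like VPS4B, the ATPase that recycles ESCRT complexes (0.980), then LONP2, a peroxisomal protease, and PGAP4, which acts on GPI anchors (0.970 each). ANXA2 was most like MYLIP, a ubiquitin ligase for the LDL receptor (0.959, and 0.838 without the 2 farthest arrays), GABRP, a GABA receptor subunit (0.956), and P3H2, a collagen prolyl hydroxylase (0.946).

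Among the closest to ANXA4 were PCYT2, an enzyme of phosphatidylethanolamine synthesis (0.961), and DNAJC11, a mitochondrial chaperone (0.927). Those closest to ANXA6 were GGT5, a gamma-glutamyltransferase (0.954, and 0.703 without the 2 farthest arrays), PRSS2, a trypsinogen (0.947), and TM6SF2, a lipid transport protein (0.944). ANXA5 had the loosest matches, with GPR180 (0.940), RASA3, which switches off Ras (0.932), and BSG, the chaperone of lactate carriers (0.923, and 0.292 without the 2 farthest arrays). Between 5 (ANXA5) and 23 (ANXA2) genes had r above 0.9 with an annexin, and no chance level was worked out for these counts. No other annexin was among the 3 closest of any.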

How the data were processed

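RNA of rumen papillae was measured on 8 one-colour Agilent bovine oligonucleotide arrays. The authors deposited scanner output (Feature Extraction 10.7.3.1) with a background-subtracted intensity per spot, not normalized between arrays, and a table of log2 values that they had quantile-normalized with GeneSpring 11.0. The latter served as an alternative. Of 44407 spots per array, 42990 were no controls and gave 21475 probes. Of the 10176 probes with a RefSeq accession, 8297 matched the gene table (ARS-UCD2.0). The number of arrays limits the precision.

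Outlier and control spots were left out, log2 intensities were quantile-normalized and spots averaged, with no filter on dim probes. A probe counted as well above background only where all its spots did. Diet, period and their interaction, the terms of the study's model, were fitted with limma 3.58.1 in R 4.3.3 (4 residual and 2.26 prior degrees of freedom, prior SD 0.182) and checked on simulated data. P values were adjusted by Benjamini-Hochberg. Exact permutation tests were two-sided (scipy 1.17.1, smallest P 0.0286) and exchanged arrays between diets without regard to cow, because exchanges within the 4 cows cannot give a P below 0.125. Tables and plots were made with pandas 2.3.3 and matplotlib 3.10.9 in Python 3.11.15.

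Groups, cows and periods come from the labels. Deviations from the diet mean over 16030 probes were correlated between the 2 arrays of a cow. The r was 0.285, 0.298, 0.467 and 0.113 in cows 1 to 4, and -0.237 to 0.185 between cows. The arrays of cows 1, 2 and 3 were thus more alike than any of different cows. Those of cow 4 were not, and their pairing rests on the labels alone.

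The members and lists were chosen with earlier results of these data known. Named are all members, partners past a threshold plus S100A10, S100A11, S100A6, AHNAK, PDCD6, PDCD6IP and FPR2, and the 3 genes most alike to each member, of which 1 is not reported here. The remaining partners, and DSG1 as the marker with the widest spread, were named after their values were seen. Alternatives were 75th percentile scaling, normexp (offset 50, on median signals), a background filter, the deposited table, other model terms, moderation, cow as a block and leaving out each array. Blood values, qRT-PCR and cell culture are not analysed here.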

Additional observations from a re-analysis of the deposited data

Results flagged for a closer look

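The signal of ANXA10, a family member outside the 10 genes, was set apart on the HC array of cow 2, where its gap to the nearest of the other HC arrays was 0.9307 of the range of the 4, and Dixon's test for a single extreme value picked it out at the 95% level. Its log2 signal there was 2.05, the probe was well above background on 0 arrays, and 1 of 40 groups tested was picked out, where chance picks out about 1 in 20. The diet difference of PLAT, the tissue plasminogen activator, differed between the periods, at 0.32 in period 1 and -0.22 in period 2 (P = 0.0446 in limma, unadjusted, adjusted P = 0.482 in limma, exact permutation P = 0.333 over the 4 cow means). This contrast lies between cows 1 and 2 and cows 3 and 4, and 0.333 is the smallest P that the permutation test can give. The limma P counted both arrays of a cow as separate.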

How the results depend on the processing

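ANXA2, ANXA4, ANXA5 and ANXA8 kept the sign of their diet difference in all 19 alternative settings, and none of them was called in any. The background filter, other model terms, other moderation and the cow blocks leave these folds unchanged and short of the threshold. Sign and call were thus fixed in advance there, and those settings test neither. The sign could change only with 75th percentile scaling, normexp, the deposited table or single arrays left out, and there it was kept. For ANXA3, ANXA6 and ANXA7 the sign turned when single arrays were left out, with ranges of -0.25 to 0.22, -0.035 to 0.26 and -0.19 to 0.070. Leaving out single arrays gave 0 to 1 annexins called for diet (ANXA9, without cow 4 on LC, cow 3 on HC or cow 1 on HC), 0 to 1 with P under 0.05, 0 to 1 called for period (ANXA9, without cow 4 on LC or cow 2 on HC), 0 to 1 called between cows and 0 to 1 partners called (PLG, without cow 4 on LC, and well above background on 0 arrays). The count of annexins with P under 0.05 for diet, 1 in the reported fit (ANXA9), was 0 after normexp, with diet alone, without moderation, and with cow as a block and no period. It was also 0 with the background filter, but only because that filter removes the probe of ANXA9 and leaves 7 annexins. With 75th percentile scaling, 1 annexin was called for period (ANXA9, -0.72, adjusted P = 0.157 in limma). With cow as a replicate block, 0 annexins and 0 partners were called for diet, with or without period and as a random block. A block leaves the fold unchanged, and every annexin and every partner but PLG was short of 1.5-fold. These genes could not be called there, so the counts do not test the pairing. In these fits, in the same order, 1, 0 and 1 annexins had P under 0.05. The mean of all probes changes nothing for the annexins, which have 1 probe each. The cause of these shifts was not tested. Signal over background limits ANXA9, and 4 arrays per diet limit the rest.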
